A study of Mus musculus with 2 samples.

Results

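Processed pseudogenes of ribosomal protein genes are copies of spliced ribosomal protein mRNAs that were reverse transcribed and inserted into the genome. They were taken from the table of gene counts as the rows whose symbol is a ribosomal protein symbol of the large subunit (Rpl, Rplp) or the small subunit (Rps, Rpsa) followed by -ps and an optional number. The rule gave 322 of 56791 rows, 199 named for the large and 123 for the small subunit, from 65 parent symbols, of which 64 were rows of the table. The parent is the functional gene named before -ps, as in Rps6 for Rps6-ps4. Pseudogenes with predicted or clone names are not covered by the rule.

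The study asked what a preparation named FAPD10-exos does to M2 polarization of RAW264.7, a mouse leukaemia line of the macrophage lineage, here of wild-type genotype. The FAPD10-exos culture received 10000000 particles together with IL-4, and the vehicle culture is read from the labels as having received the IL-4 alone, with 20 ng of the cytokine over 24 h in both. Each group was 1 library of total RNA, with 37196241 counts in the FAPD10-exos and 36152743 counts in the vehicle library. Without replicates there is no test of the treatment, and every difference below describes these libraries. CPM is the count after scaling for library size, and 1 CPM was 35.6 counts in the FAPD10-exos and 37.8 in the vehicle library. All 8 macrophage markers were counted in both libraries. Of these, Ptprc, Csf1r, Cd68, Itgam, Spi1 and Lyz2 lay between 89.8 and 1110 CPM, Adgre1 stood at 6.94 CPM with FAPD10-exos and 2.38 CPM with vehicle, and Fcgr3 at 4.72 and 5.79 CPM. Of 6 fibroblast markers, Col1a1, Col1a2, Dcn and Lum had 0 counts in both, Col3a1 had 4 with FAPD10-exos and 2 with vehicle, and Pdgfra 0 and 2. The endothelial markers Pecam1 and Cdh5 had 24 and 2 counts with FAPD10-exos, against 6 and 4 with vehicle, and the muscle markers Myod1 and Myf5 had 0 in both.

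Ribosomal protein genes encode the proteins that join ribosomal RNA to form the ribosome, and their mRNAs are short and among the most abundant of a growing cell. Such mRNAs are copied into the genome more often than most, which leaves each functional gene with intronless relatives. These lack the promoter of the parent, and many carry changes that break the reading frame. Because a young copy is nearly the same sequence as the parent mRNA, a short read from the parent can be placed on the copy.

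How close the copies are is shown by Rps6, the small subunit protein phosphorylated downstream of mTOR, and its 4 pseudogenes, which run from a highly counted copy to a hardly counted one. The stretch covers positions 218 to 337 of the Rps6 coding sequence, the 120 bases with the most differences over these copies. The sequences are from the transcripts of GENCODE M21 (GRCm38), and capitals mark bases that differ from Rps6.
Rps6: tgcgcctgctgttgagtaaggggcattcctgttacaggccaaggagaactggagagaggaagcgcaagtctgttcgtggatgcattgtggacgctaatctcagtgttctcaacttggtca
Rps6-ps4: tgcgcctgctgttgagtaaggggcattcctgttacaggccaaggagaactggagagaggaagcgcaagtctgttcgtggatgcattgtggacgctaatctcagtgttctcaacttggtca
Rps6-ps3: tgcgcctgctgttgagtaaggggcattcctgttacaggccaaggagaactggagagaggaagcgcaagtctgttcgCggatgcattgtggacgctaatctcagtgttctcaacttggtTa
Rps6-ps1: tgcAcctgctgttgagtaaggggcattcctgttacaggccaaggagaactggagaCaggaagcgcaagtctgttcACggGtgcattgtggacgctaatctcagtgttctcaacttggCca
Rps6-ps2: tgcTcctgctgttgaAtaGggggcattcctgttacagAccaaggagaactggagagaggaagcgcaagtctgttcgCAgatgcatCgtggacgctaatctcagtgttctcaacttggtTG
Rps6-ps4, on chromosome 2, had 0 differences here and over its whole 750 bases. Rps6-ps3 on chromosome 9 had 2 in the stretch and 11 over its length, Rps6-ps1 on chromosome 15 had 6 and 14, and Rps6-ps2 on chromosome 8 had 9 and 30. Their counts stood in the same order: 13832 in the FAPD10-exos and 7914 in the vehicle library for Rps6-ps4, 1082 and 722 for Rps6-ps3, 762 and 500 for Rps6-ps1, and 6 and 4 for Rps6-ps2. The order did not hold in every family. Rpl17-ps10, with 4 differences from Rpl17, had 1492 and 1008 counts, and Rpl17-ps9, with 2, had 216 and 132.

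The pseudogene with the most counts was a copy of Rpl3, a large subunit protein near the peptidyl transferase centre, and the most counted of the 4 whose relative ratio to the parent, described below, had an interval above 1 was a copy of Rpsa, a small subunit protein also known as the laminin receptor precursor. Each is shown beside its parent over the 120 coding bases with the most differences, positions 1 to 120 of Rpl3 and 100 to 219 of Rpsa, with differing bases in capitals.
Rpl3: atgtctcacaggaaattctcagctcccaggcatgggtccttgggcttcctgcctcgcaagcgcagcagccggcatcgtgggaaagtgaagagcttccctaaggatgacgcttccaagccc
Rpl3-ps1: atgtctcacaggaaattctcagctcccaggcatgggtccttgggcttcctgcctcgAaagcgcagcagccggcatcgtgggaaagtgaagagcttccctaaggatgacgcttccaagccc
Rpsa: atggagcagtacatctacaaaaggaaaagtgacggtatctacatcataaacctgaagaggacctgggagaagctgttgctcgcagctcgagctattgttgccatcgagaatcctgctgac
Rpsa-ps10: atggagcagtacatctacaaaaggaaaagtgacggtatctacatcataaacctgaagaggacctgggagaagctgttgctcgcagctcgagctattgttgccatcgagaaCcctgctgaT
Rpl3-ps1 differed from Rpl3 at 2 of 1210 bases in all, and Rpsa-ps10 from Rpsa at 6 of 885.

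The name before -ps was not always the closest relative. Rpl36a, Rpl36a-ps2, Rpl36a-ps3 and Rpl36al, a functional paralog of Rpl36a on chromosome 12, are shown over positions 10 to 129 of the Rpl36a coding sequence, with bases that differ from Rpl36a in capitals.
Rpl36a: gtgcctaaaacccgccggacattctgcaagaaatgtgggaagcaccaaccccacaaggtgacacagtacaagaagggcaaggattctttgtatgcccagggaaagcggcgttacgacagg
Rpl36a-ps2: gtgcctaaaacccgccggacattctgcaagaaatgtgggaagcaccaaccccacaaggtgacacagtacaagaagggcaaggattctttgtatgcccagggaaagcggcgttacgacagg
Rpl36a-ps3: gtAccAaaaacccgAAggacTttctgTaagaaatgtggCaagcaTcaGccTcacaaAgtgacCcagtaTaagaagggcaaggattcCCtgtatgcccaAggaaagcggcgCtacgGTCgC
Rpl36al: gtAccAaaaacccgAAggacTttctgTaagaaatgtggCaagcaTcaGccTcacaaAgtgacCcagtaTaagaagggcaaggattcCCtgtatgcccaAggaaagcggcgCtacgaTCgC
Rpl36a-ps2 was identical to Rpl36a over its 321 bases. Rpl36a-ps3 differed from Rpl36a at 40 of 321 bases but from Rpl36al at 1, so Rpl36al was taken as a further reference for it below.

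Of the 322 pseudogenes, 128 had 0 counts in both libraries, 194 had a count in at least 1, and 77 reached a mean of 1 CPM and are called measured. Of the 194, 54 had under 10 counts in all. Together the 322 held 118883 counts in the FAPD10-exos and 74921 in the vehicle library, 0.320% and 0.207% of all counts. The ratio of FAPD10-exos to vehicle, after scaling by TMM, was 1.69 with a 95% counting interval of 1.67 to 1.70. These intervals hold counting error alone, as if every count came from a separate molecule. Among pseudogene counts of 1 to 50, 94.4% of 215 values were even numbers. Whether both ends of each read pair were counted was not tested; if so, the intervals are too narrow, and values with counts halved are given for this reason. The 5 most counted pseudogenes held 59.5% of the pseudogene counts in the FAPD10-exos and 62.8% in the vehicle library.

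Rpl3-ps1 (chromosome X, 13068810 to 13070019, plus strand) reached 25162 counts with FAPD10-exos and 16404 with vehicle, or 707 and 434 CPM, which gives a ratio of 1.63 (1.60 to 1.66). Positions here and below are those of the deposited table, and no source used here names its mouse build. Rps2-ps10 (chromosome 18, 61392079 to 61393059, minus strand), a copy of the small subunit gene Rps2, had 14870 counts and 418 CPM against 11870 counts and 314 CPM, a ratio of 1.33 (1.299 to 1.36). Rps6-ps4 (chromosome 2, 75021417 to 75022166, minus strand) stood at 389 against 209 CPM, a ratio of 1.86 (1.81 to 1.91). All 3 were thus higher in the FAPD10-exos library, with Rps2-ps10 below the 1.5-fold threshold used here. Next in counts were Rpl3-ps2, at 260 against 162 CPM with a ratio of 1.60 (1.55 to 1.66), and Rpl14-ps1, at 214 against 126 CPM with a ratio of 1.697 (1.64 to 1.76).

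**Figure D1:**
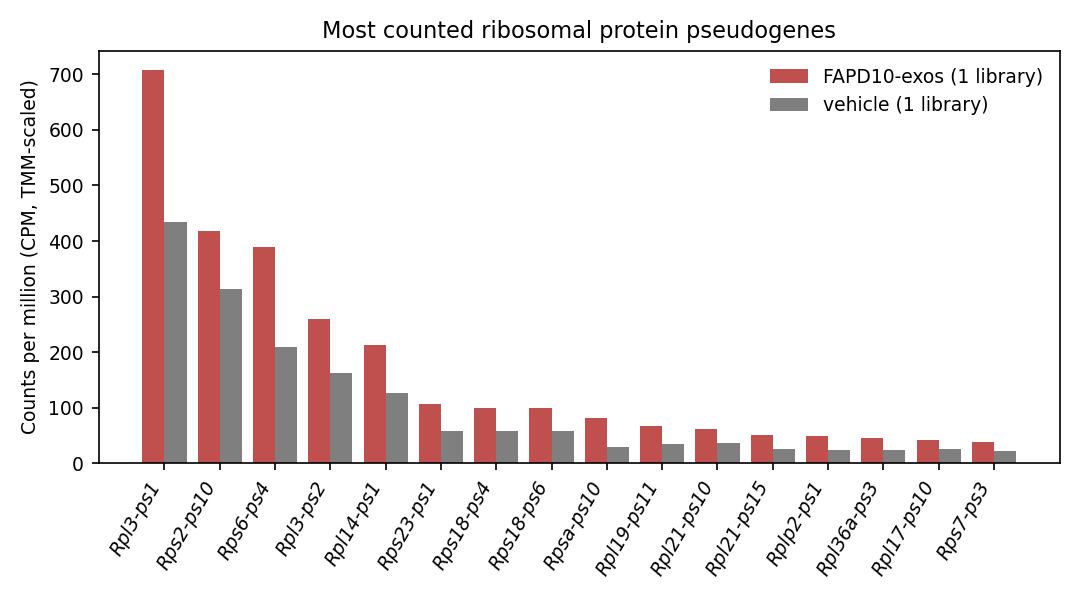
TMM-scaled CPM (vertical axis, linear from 0) of the 16 most counted pseudogenes in the FAPD10-exos library (red, left bar) and the vehicle library (grey, right bar), 1 library each, so without error bars. The FAPD10-exos bar is the taller of each pair, from 707 against 434 CPM for Rpl3-ps1 to 37.8 against 21.7 CPM for Rps7-ps3.

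Of the 77 measured pseudogenes, 65 were called higher in the FAPD10-exos library, meaning at least 1.5-fold with an interval that excludes 1, and 0 lower, with 12 between the thresholds. That rule called 17.1% of the 12264 measured genes of the table higher and 19.8% lower. At 2-fold, 25 of the 77 were higher and 0 lower, where 4.19% of the table's measured genes were higher and 8.64% lower. Ratios of the 77 ran from 0.960 for Rpl9-ps6 to 2.90 for Rps15a-ps7, with a median of 1.82, or 0.86 in log2, against a median of 0.01 in log2 for all measured genes. The interval lay above 1 for 70 of the 77, and for 64 when the counts were halved. The share of all measured genes with an interval above 1 was not computed, so these 2 numbers have no background. No p-value was computed, since each group is a single library.

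Copies of genes of both subunits were higher. Of 45 measured large subunit pseudogenes 39 were called higher, with a median ratio of 1.74, and of 32 measured small subunit pseudogenes 26, with a median ratio of 1.85. The summed ratios were 1.69 (1.67 to 1.71) for the large and 1.67 (1.65 to 1.698) for the small subunit. Among the highest were Rpl10-ps3, a copy of a large subunit gene whose protein completes the peptidyl transferase region, at 3.65 against 1.32 CPM and a ratio of 2.76 (1.98 to 3.91), and Rps15a-ps7 at 2.30 against 0.794 CPM and a ratio of 2.90 (1.89 to 4.57).

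The measured pseudogenes spanned 213 to 1258 bases of counted exon. Of 1287 other measured genes in that range, 37.0% were called higher and 13.2% lower, with a median ratio of 1.31. These other genes exclude the set alone, so they hold functional ribosomal protein genes of that length, Rpl36 and Rpl19 among them. They can also hold ribosomal protein pseudogenes with predicted or clone names. Pseudogene rows of other genes, named by -ps alike, had 26 of 110 measured members higher, 18 lower and a median ratio of 1.17. Outside the set studied here, 9184 rows are listed by GENCODE M21 as processed pseudogenes. Of these, 509 were measured, with 170 higher, 51 lower and a median ratio of 1.25. Only the set itself was left out, so this list can share rows with the -ps rows above. It can also hold ribosomal protein pseudogenes with predicted or clone names, so it is no comparison with pseudogenes of other genes alone. The part of transcript length in the ratios was not tested.

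**Figure D2:**
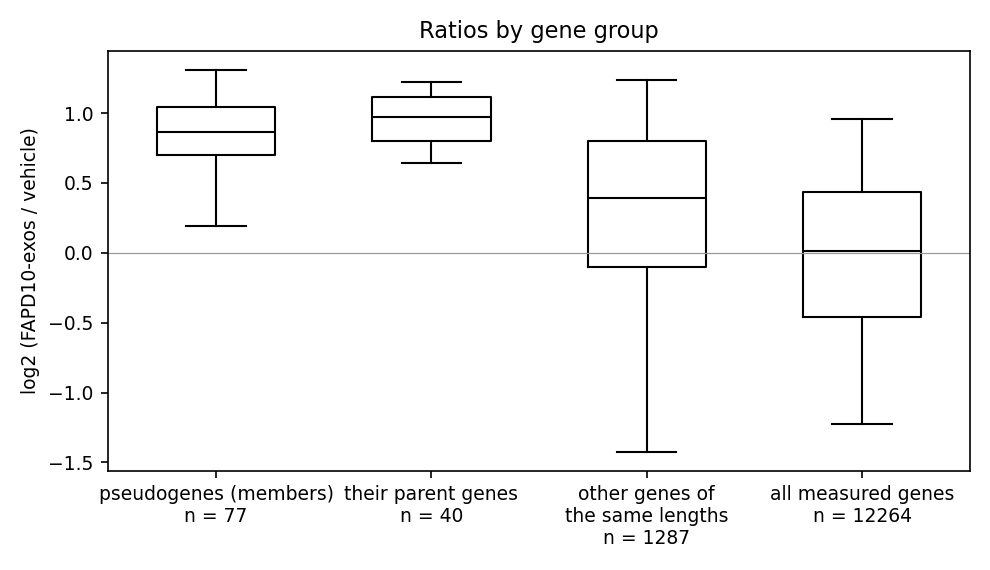
Log2 ratios of FAPD10-exos over vehicle for the 77 measured pseudogenes, their 40 parent genes, 1287 other measured genes in the length range of the pseudogenes and all 12264 measured genes. The line is the median, the box the quartiles and the whiskers run between percentiles 5 and 95 of genes. The medians of the pseudogenes (0.86) and the parents (0.97) lie above those of the other genes in that range (0.39) and of all genes (0.01). The other genes in that range include parents of that length, such as Rpl36 and Rpl19. The boxes of the pseudogenes and of the other genes in that range overlap.

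The parents of the measured pseudogenes, 40 genes, were themselves higher in 39 cases, with a median ratio of 1.96 and a summed level of 37419 CPM in the FAPD10-exos and 18565 CPM in the vehicle library. To set a copy against its parent without any scaling, the ratio of pseudogene counts to parent counts was compared between the libraries. This relative ratio had a median of 0.927, was under 1 for 52 of the 77 and over 1 for 25, and ran from 0.494 to 1.53. Its exact counting interval lay below 1 for 25 pseudogenes and above 1 for 4, or 16 and 3 with counts halved. Some pseudogenes share a parent, so these pairs are not independent.

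Rpl3-ps1 held 40.8% as many counts as Rpl3 in the FAPD10-exos and 45.3% in the vehicle library, a relative ratio of 0.901 (0.880 to 0.922). Rps6-ps4, identical to Rps6 over its length, held 18.7% against 18.9% as many counts as its parent, a relative ratio of 0.990 (0.960 to 1.02). This copy thus stood at the parent's ratio within counting error. Identity alone did not go with the parent's ratio: over 13 measured copies without a mismatch, relative ratios ran from 0.869 (Rpl28-ps1) to 1.52 (Rpl15-ps3). Rps6-ps3 stood at 0.849 (0.771 to 0.934) and Rps6-ps1 at 0.863 (0.769 to 0.969) relative to Rps6. With counts halved, the interval of Rps6-ps1 reached 1.02. Rpl36a-ps3 stood at 0.832 (0.764 to 0.905) relative to Rpl36a and at 0.815 (0.748 to 0.888) relative to Rpl36al, which was itself at 551 against 239 CPM.

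The 4 pseudogenes above their parents were Rps18-ps5, Rpl15-ps3, Rpsa-ps10 and Rpl10a-ps1, named after their values were seen. Rps18-ps5 (chromosome 13, 28441511 to 28442117, plus strand), a copy of a small subunit head protein gene, had 874 against 358 counts, a ratio of 2.59 beside 1.696 for Rps18 and a relative ratio of 1.53 (1.34 to 1.75). Rpl15-ps3 (chromosome 9, 22096903 to 22097517, minus strand) had 606 against 276 counts, a ratio of 2.33 beside 1.53 for Rpl15 and a relative ratio of 1.52 (1.31 to 1.77), with no difference from Rpl15 over its 615 bases. All stretches of 100 bases in Rpl15-ps3 occurred in Rpl15 and 98.6% in Gm4294, so the counts of Rpl15-ps3 cannot be assigned to this copy alone. Rpsa-ps10 had 2914 against 1130 counts and a relative ratio of 1.22 (1.14 to 1.31). Rpl10a-ps1, also without a difference from its parent, stood at 1.28 (1.04 to 1.59), an interval that started at 0.949 with counts halved.

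At the other end, Rpl36-ps12 had 113 against 106 counts, a ratio of 1.13 (0.861 to 1.49) beside 2.29 for Rpl36 and a relative ratio of 0.494 (0.375 to 0.651). Rpl9-ps6 had 94 against 104 counts with a ratio of 0.960 (0.718 to 1.28), Rps13-ps5 72 against 74 with 1.03 (0.737 to 1.45), and Rpsa-ps7 202 against 188 with 1.14 (0.931 to 1.40). None of these had an interval that excludes 1, while the parents Rpl9, Rps13 and Rpsa stood at 1.92, 2.03 and 2.24. Rpsa-ps7 and Rpsa-ps10 copy the same gene and stood at 0.510 (0.416 to 0.625) and 1.22 relative to it. Rpl9-ps6 is among 6 rows of the set that GENCODE M21 calls protein-coding.

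**Figure D3:**
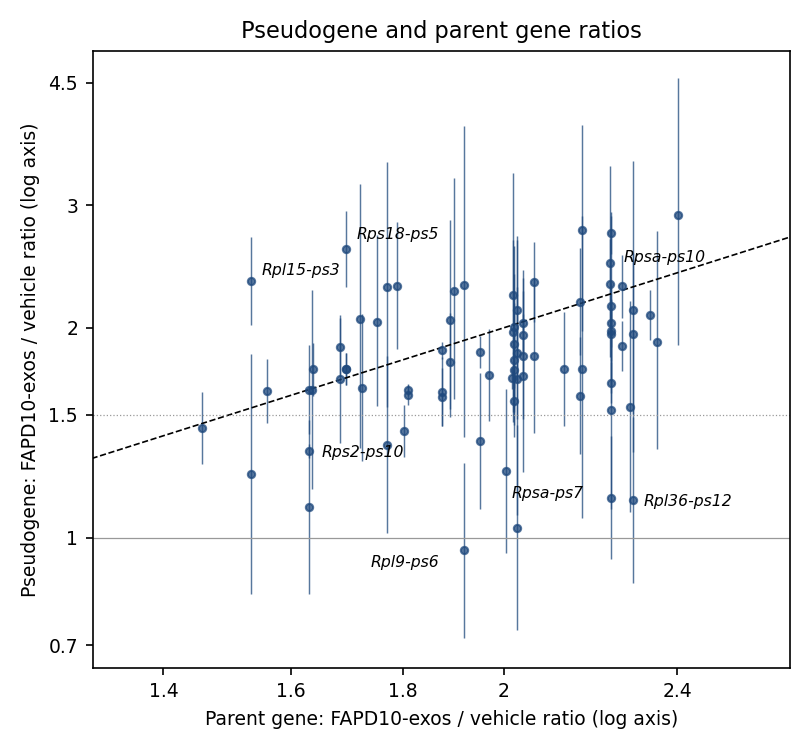
Ratio of FAPD10-exos over vehicle for each of the 77 measured pseudogenes (vertical log axis, bars are 95% counting intervals) against the ratio of its parent gene (horizontal log axis); the dashed line marks equal ratios, the solid line a ratio of 1 and the dotted line 1.5. Points lie below the dashed line for 52 pseudogenes, with Rpl36-ps12 and Rpl9-ps6 far below it and Rps18-ps5 and Rpl15-ps3 above it.

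In most families the copies held few counts beside the parent, with a median over measured pseudogenes of 1.80% of the parent's counts in the FAPD10-exos and 1.78% in the vehicle library. The family of Rps2, which encodes a small subunit protein near the mRNA entry site, had the largest share of pseudogene counts beside its parent: Rps2-ps10 held 14870 and 11870 counts where Rps2 itself had 1100 and 716. Per length, Rps2 stood at 16.9 CPM per kilobase of exon in the FAPD10-exos and 10.4 in the vehicle library, against 1311 and 699 for Rps6. The remaining 11 Rps2 pseudogenes included Rps2-ps13, with 473 against 308 counts, and Rps2-ps6, with 102 against 98. The 7 pseudogenes of Rps18 together had 168% of its counts in the FAPD10-exos and 157% in the vehicle library, or 93.5% and 84.9% with Rps18-ps4 and Rps18-ps6, which hold the same counts over shared bases, counted once. The 6 pseudogenes of Rpl35a, a large subunit gene, summed to 84.2% against 75.8% of its counts, with most in Rpl35a-ps6 at 1186 against 670 counts and a ratio of 1.88 (1.71 to 2.07). The pair of Rpl3 pseudogenes summed to 55.8% against 62.2% of Rpl3. The 24 pseudogenes of Rpl31 and the 24 of Rps12 were the most numerous, but 1 and 2 of them were measured, and they summed to 6.21% against 6.18% of Rpl31 and 5.05% against 5.87% of Rps12.

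Sequence was at hand for 298 of the 322 pseudogenes, matched by symbol, and 289 of these had the length given in the table. Measured pseudogenes were close to their parents, with a median identity of 99.3% and a median of 3 mismatches over 68 of them. Those counted but not measured had a median of 96.8% and 12 mismatches (108 pseudogenes), and those without a count 90.6% and 32.5 mismatches (122 pseudogenes). A reading frame at least as long as the parent's longest listed coding sequence was found in 31 of 68 measured, 27 of 108 less counted and 12 of 122 uncounted copies. That limit was 447 bases for Rps12, so a copy such as Rps12-ps6, with a frame of 399 bases, fell short of it. Shorter coding sequences of the parents were not compared. A frame had to run from a start to a stop codon within the listed transcript. A copy listed at fewer bases than the coding sequence therefore fell short whatever its sequence. Rps23-ps1, without a mismatch over its 425 bases, had a frame of 48 bases against 432 for Rps23. Falling short is thus no sign of a broken frame. As a description, 13 measured copies had no mismatch to the parent over the aligned stretch, Rps23-ps1, Rpl28-ps1, Rpl38-ps2 and Rps16-ps2 among them.

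**Figure D4:**
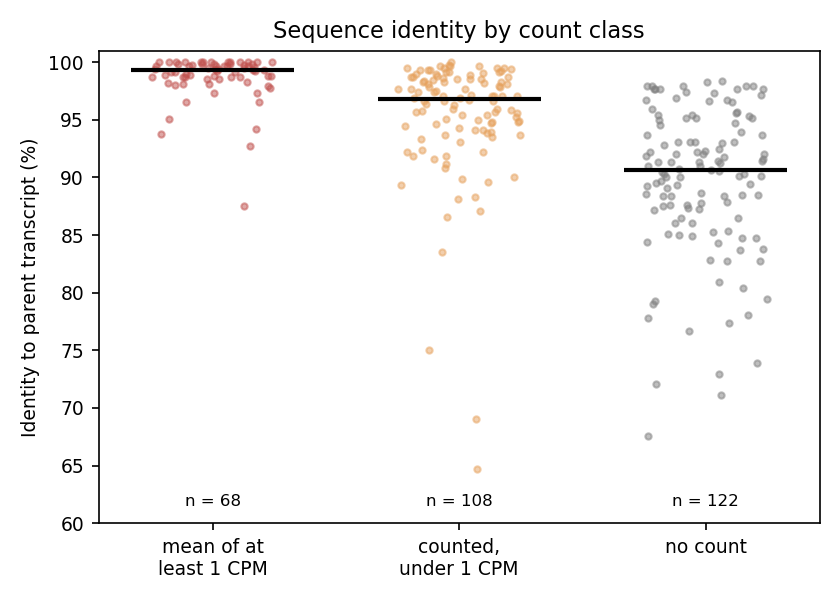
Percent identity of each pseudogene to a coding transcript of its parent (vertical axis from 60 to 100%), for 68 measured pseudogenes, 108 with counts but under a mean of 1 CPM and 122 with no count; lines are medians. The medians are 99.3%, 96.8% and 90.6%, and points are spread sideways for legibility.

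Shared sequence limits what a count can be assigned to. Of all stretches of 100 bases in a measured pseudogene, a median of 55.5% occurred unchanged in the parent's transcripts and 73.1% in those of any other gene, and 16 of the 68 had no stretch of their own. No source used here gives the read length or how reads matching more than 1 place were handled, so the part of parent reads in these counts was not tested. Within 8 measured pseudogenes at most 20% of the stretches occurred elsewhere, a limit chosen after the data were seen. They were Rps6-ps1, Rps24-ps2, Rpl36-ps3, Rpsa-ps12, Rpl19-ps9, Rpl7-ps7, Rps10-ps1 and Rpl36-ps2, and all 8 were called higher, with ratios from 1.62 to 2.29. Of these, Rps24-ps2, Rpl36-ps3 and Rpl19-ps9 had 0% of their stretches unchanged in another gene. Their identity to the parent was still 94.2%, 98.7% and 92.8%, and matches that are shorter or hold a mismatch were not sought. Rps24-ps2 had 168 against 98 counts with a ratio of 1.82 (1.41 to 2.36), Rpl36-ps3 166 against 90 with 1.96 (1.51 to 2.56), and Rpl19-ps9 106 against 66 with 1.71 (1.24 to 2.36).

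Other genes lay over 105 of the 322 pseudogenes, and in 14 cases they shared exon bases. Rps18-ps4 and Rps18-ps6, on opposite strands of chromosome 13 with 541 bases in common, each had exactly 3562 counts in the FAPD10-exos and 2166 in the vehicle library. Rps23-ps1 and the opposite-strand gene Gm5148 shared 396 bases and likewise had 3792 and 2180 counts each. Rps23-ps2 had 184 and 142 counts where Rps23rg1, on the other strand over 396 bases, had 184 and 143. Values of such overlapping genes are not independent, and how strand was handled in counting is not stated, so the Rps18 pair is best read as 1 value. Rplp2-ps1 lies whole within an exon of Wdr89, so its 1752 against 892 counts cannot be told apart from those of that gene, which had 1984 against 1152.

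Some pseudogenes lay within the span but outside the exons of a gene with another ratio. Rpl36-ps2, within the span of Abr, had 56 against 28 counts with a ratio of 2.12 (1.33 to 3.47), whereas Abr stood at 88.0 against 156 CPM, 1.77-fold lower. Rps12-ps3 within Pdzd8 had a ratio of 2.23 (1.51 to 3.34), and Pdzd8 was 1.97-fold lower. Rps19-ps6 within Tecpr2 and on its strand had a ratio of 1.91 (1.34 to 2.76), and Tecpr2 was 2.22-fold lower. Rpl27a-ps4 within Tnpo1 had a ratio of 1.25 (0.951 to 1.63), and Tnpo1 was 1.95-fold lower. Rpl36-ps12 within Sumf1 had a ratio of 1.13, and Sumf1 was 1.72-fold higher (1.66 to 1.79).

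Below the filter, the 117 counted pseudogenes summed to 1293 counts with FAPD10-exos and 915 with vehicle, a ratio of 1.501 (1.38 to 1.64). Of those with at least 10 counts, the highest by the interval bound nearest to 1 were Rps19-ps3 with 32 against 5 counts, Rpl10-ps1 with 20 against 2, Rpl21-ps7 with 30 against 8, Rpl35a-ps5 with 24 against 6 and Rps26-ps1 with 36 against 13. Their ratios were 6.80 (2.63 to 22.3), 10.6 (2.58 to 93.7), 3.98 (1.78 to 10.1), 4.25 (1.69 to 12.7) and 2.94 (1.52 to 6.04). Rpl10-ps1 is identical to Rpl10 over 645 bases. At the low end, Rps12-ps26 had 15 against 36 counts, 2.26-fold lower (1.21 to 4.44), and Rpl13-ps6 4 against 14, 3.30-fold lower (1.03 to 13.7), and both intervals included 1 with counts halved. Rpl7-ps8 with 22 against 36 counts, Rpl9-ps7 with 28 against 44 and Rpl31-ps14 with 22 against 28 had intervals that included 1. Counts in a single library were found for 23 pseudogenes in the FAPD10-exos library, with at most 6 counts, and for 9 in the vehicle library, with at most 4. Over all genes of the table, 23036 had a count in at least 1 library, 20489 in the FAPD10-exos and 21012 in the vehicle library. A count of 0 allows up to 3 counts, or 0.0843 CPM in the FAPD10-exos and 0.0794 CPM in the vehicle library.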

How the data were processed

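The authors deposited 1 table of raw read counts per gene symbol for both RNA-seq libraries, in the layout of featureCounts per the file headers, with an exon length per gene as another number. Per the submitters' processing notes, fastp 0.23.4, STAR 2.5.3a and featureCounts were used. The build named there is human while the symbols are mouse, so it cannot be that of these data; annotation, strand and multi-mapping settings are named in no source used here. Columns were matched to samples by the labels' descriptions.

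Counts were scaled by TMM (edgeR 4.0.16, R 4.3.3), with factors of 0.957 for the FAPD10-exos and 1.05 for the vehicle library, so that 1 CPM equals 35.6 and 37.8 counts. With 1 library per group the quasi-likelihood test could not be fitted. Ratios have exact Clopper-Pearson 95% intervals, and relative ratios to the parent exact conditional ones. Where a count was 0, 0.5 was added to both for the point value. Alternatives included total-count, median-of-ratios (DESeq2 1.42.0) and upper-quartile scaling. The scripts were tested on simulated data.

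Members and lists were chosen with earlier results of these data known. Named were pseudogenes with a mean of at least 1 CPM, of which the text gives a part, the 5 highest and 5 lowest others with at least 10 counts, their parents and host genes. Rps6-ps2 and Rpl36al fall outside this rule and were chosen after their values were seen. Identity came from local alignment (biopython 1.88) of GENCODE M21 transcripts, taken by symbol, with coordinates not used. Intervals came from scipy 1.17.1 and figures from matplotlib 3.10.9, under Python 3.11.15 with pandas 2.3.3 and numpy 2.4.6.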

Additional observations from a re-analysis of the deposited data

How the results depend on the processing

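The 65 pseudogenes called higher were 52 under total-count, 63 under median-of-ratios and 66 under upper-quartile scaling, 61 with counts halved, and 64 with the Rps18 pair counted as 1. Scalings moved the median of all measured genes by -0.13, -0.04 and 0.07 in log2, and that of the pseudogenes alike, to 0.74, 0.82 and 0.93. With fewer pseudogenes left to count, the number was 27 of 30 at 10 CPM, 36 of 43 without those that overlap another gene, and 8 of 8 with at most 20% of stretches elsewhere; at 2-fold it was 25 of 77. The Rps18 pair and the 20% limit were alternatives chosen after seeing the data. Without a filter 84 of 194 were higher and 2 lower. Except at 2-fold, the share of all genes called was not computed for these alternatives. The other alternatives called 0 lower. The summed ratio of 1.69 became 1.54, 1.64 and 1.77 under the same scalings, 1.703 without overlapping pseudogenes, 1.701 without Rpl3-ps1 and 1.68 with the Rps18 pair counted as 1. The median relative ratio, -0.11 in log2, lay between -0.20 and -0.07. Moves of a median were judged against the medians of the pseudogenes' lower and upper interval bounds. No paired analysis was possible because each group has 1 library. The lack of replicates and the sequence shared with other genes, not depth, limit the frequently counted pseudogenes, while those under 1 CPM are also limited by few counts.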
